A study of Mus musculus with 24 samples.

Results

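Pulmonary fibroblast cultures from mice labelled TLR4-/- were compared with cultures from wild type (WT) mice. Both had been kept for 24 h with the vehicle phosphate-buffered saline (PBS) and no stimulus. The comparison holds 6 of the 24 libraries of the study, the 3 labelled TLR4 -/- with PBS and the 3 labelled Wild Type with PBS, and 15678 of the 16258 genes tested, after 523 X- or Y-linked genes and 57 genes with no known chromosome were left out. All mice had the C57BL/6 strain, and the TLR4-/- animals were bought as knockouts on that background. Lungs were taken from animals aged 4 to 8 weeks, and the cells of each genotype came from a pool of 3 to 4 lungs, were grown in serum up to passage 3 to 6, and were held overnight in Opti-MEM, a medium with little serum, before PBS was added. A genotype is therefore also a pool of animals and a culture, and those cannot be told apart here. Nothing in the labels says that the 3 libraries of a group came from separate isolations, so p-values measure the spread between these libraries, which may be technical.

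Lung fibroblasts are the cells that lay down and remodel the collagens and elastic fibres of the alveolar wall and the airway sheath. Primary cultures of them are usually started from digested lung by adherence to plastic, to which lung macrophages also adhere. Toll-like receptor 4 (TLR4) is the receptor that, with its partner MD-2 (gene Ly96) and with CD14, recognizes bacterial lipopolysaccharide and several proteins released by injured cells, and it is carried by macrophages and by fibroblasts. The comparison with PBS describes which cell types and which fibroblast state the cultures of each genotype held without a stimulus.

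Between libraries, reads assigned to genes ran from 31838121 to 34496919 in the WT libraries and from 31628081 to 33603631 in the labelled TLR4-/- libraries. Values below are normalized counts, which are read counts divided by a size factor of the library, given for the 3 WT libraries and then for the 3 labelled TLR4-/- libraries, and log2 fold changes (labelled TLR4-/- over WT) come from one model of all 24 libraries in edgeR. They are not divided by gene length, so levels are compared between libraries and not between genes. A difference was called at an adjusted p under 0.1 (edgeR quasi-likelihood test, Benjamini-Hochberg adjustment over all genes tested). For any single gene, an exact permutation test of 3 libraries against 3 cannot go below 0.1. The label was checked first: Tlr4 had 718, 802 and 758 normalized counts in the WT libraries and 927, 892 and 891 in the labelled TLR4-/- libraries. The label TLR4-/- is kept throughout as a label, since the Tlr4 message was not lower in any library that carries it. Each of those libraries had more of it than every WT library. A count per gene cannot tell which exons the reads came from. The pools also differed in sex-linked reads, so the sex of the cells cannot be told apart from the genotype here. Xist, which is read in female cells, had 1.92, 3.00 and 2.08 normalized counts in WT libraries and 4619, 4814 and 5055 in labelled TLR4-/- libraries, while Ddx3y, a Y-linked gene, had reads in both, at 3509, 3647 and 3708 against 2317, 2395 and 2202.

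Both sets of cultures were rich in reads of fibroblast genes. Col1a1 had 242156 ± 5246 normalized counts in WT and 241194 ± 6490.3 in labelled TLR4-/- libraries (mean ± SD, n = 3), and Fn1, the gene of fibronectin, had 235912 ± 10912 and 238262 ± 19168. Neither differed past the threshold. The genotypes were nevertheless far apart as a whole. Of the 15678 genes, 7369 were called (47%), 3635 of them higher (23.2%) and 3734 lower (23.8%) in the labelled TLR4-/- libraries. Most differences were small, with a median size of 0.35 on the log2 scale among the called genes and a median standard error of 0.08 over all genes. When a size of 1 or more on the log2 scale was also asked for, 1437 genes were called (9.17%), and of these 1004 were higher (6.4%) and 433 lower (2.76%). In 8087 genes (51.6%) the 3 libraries of one genotype did not overlap the 3 of the other, with the labelled TLR4-/- libraries above in 25.5% of all genes and below in 26.1%. In a principal component analysis of the 6 libraries on their 500 most variable genes, the first component held 93.8% of the variance and put the WT libraries between -25.9 and -24.5 and the labelled TLR4-/- libraries between 24.5 and 26.7. The counts of list members given in the following paragraphs are to be read against these shares. The sums over lists depend on how libraries are put on one scale. Libraries were also scaled by the median log2 deviation of the general fibroblast genes from their means over libraries. This choice was added after the macrophage genes had been seen to differ. With it, every log2 fold change moved up by about 0.17. Of 7306 calls, 82.3% were then higher in the labelled TLR4-/- libraries, against 49.3% of 7369 calls otherwise.

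Macrophage genes differed as a group. All 20 of 20 general macrophage genes were higher in the labelled TLR4-/- libraries, with no overlap between the genotypes for any of them, and their log2 fold changes ran from 1.49 to 2.92 with a median of 2.17, where the median over all genes was -0.019. Csf1r, the receptor for the macrophage growth factor CSF1, had 2779, 3175 and 3152 normalized counts in the WT libraries and 13503, 14207 and 14237 in the labelled TLR4-/- libraries. Its log2 fold change was 2.20 (edgeR adjusted p = 1.1e-16, SE 0.068). Spi1, which encodes the myeloid factor PU.1, had 431, 441 and 515 against 2125, 2247 and 2427, a log2 fold change of 2.29. In both genes the lowest labelled TLR4-/- library was several times above the highest WT library. Mean counts were 652 in WT against 3139 in labelled TLR4-/- libraries for Ptprc, the pan-leukocyte CD45, 2033 against 6817 for Adgre1, the F4/80 antigen, 60.6 against 399 for Fcgr1, an activating receptor for IgG, and 309 against 867 for Mertk, a receptor for apoptotic cells. Mertk had the smallest difference of the list at 1.49 and Aif1 the largest at 2.92. Itgam shares 68.7% of its exonic bases with another gene model on the same strand, so its count is uncertain. The 20 genes together had between 93137 and 101329 normalized counts in WT libraries and between 341070 and 392323 in labelled TLR4-/- libraries, a ratio of means of 3.71, and a ratio of 4.13 without Lyz2, the lysozyme gene that held most of these reads. WT cultures also carried macrophage reads. In RNA from whole cultures, more cells of a type and more of its RNA per cell cannot be told apart.

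**Figure D1:**
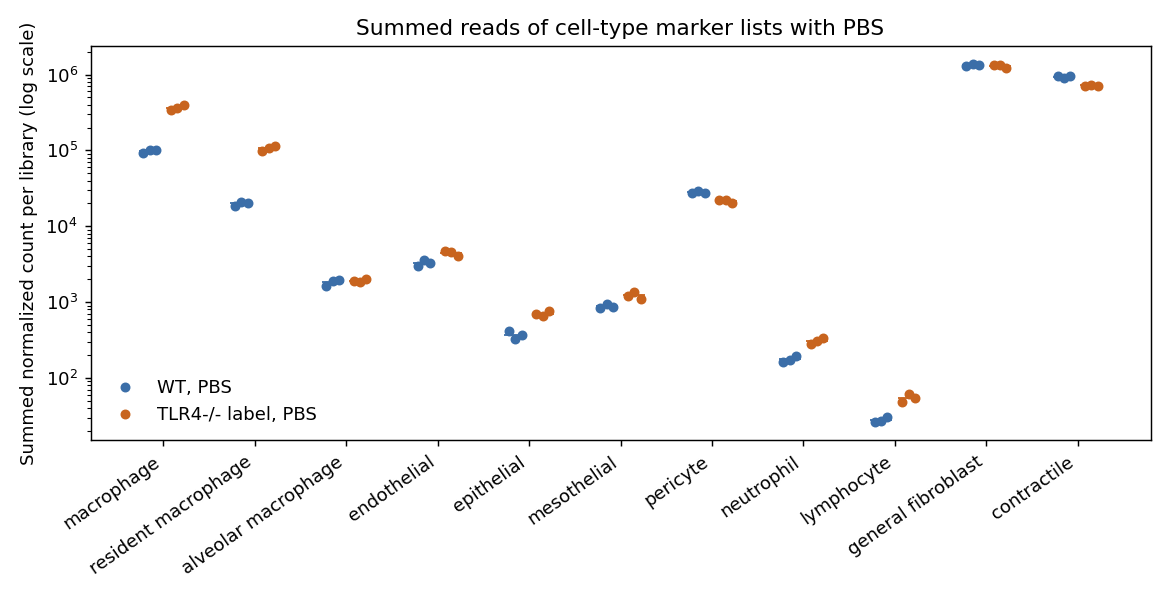
Summed normalized count of each marker list (y axis, logarithmic) in each of the 6 PBS libraries, with WT in blue and the TLR4-/- label in orange, and with short lines at the group means. The general and resident macrophage lists are separated by a wide gap (93137 to 101329 against 341070 to 392323 for the general list). The alveolar macrophage list and the general fibroblast list overlap between the genotypes.

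Among the genes that mark macrophages settled in tissue, 13 of 14 were higher and none lower, with a median log2 fold change of 2.19. The first component of complement is made by such cells: C1qa had 1866, 2099 and 2088 normalized counts in WT libraries and 13853, 13669 and 14871 in labelled TLR4-/- libraries, and C1qb and C1qc had log2 fold changes of 2.63 and 2.61. Cx3cr1, the fractalkine receptor, had the largest difference of the list, with 84.7, 75.9 and 87.4 against 869, 899.7 and 820.3, a log2 fold change of 3.38 (edgeR adjusted p = 1.6e-12, SE 0.19). Stab1, a scavenger receptor, had a mean of 2035 against 13017, and Apoe, a lipid carrier that macrophages secrete, of 8836 against 40703. The exception was Lyve1, which had 20.2, 5.99 and 12.5 against 11.9, 7.42 and 11.9 normalized counts and did not pass the threshold. Cd163 was called but sparse, at 12.5, 16.97 and 5.20 against 77.1, 83.7 and 93.6. Folr2 was also called, and 63.1% of its exonic bases are shared with another gene model.

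The genes of alveolar macrophages did not follow as one group. Of 10 tested, 7 were higher and 1 lower. Siglecf, a surface lectin of alveolar macrophages, had only 4.81, 10.98 and 7.29 normalized counts in WT libraries and 28.6, 25.4 and 41.8 in labelled TLR4-/- libraries. Chil3 and Ear2 had at most 3 reads in every WT library, so that their differences are given as bounds, at least 5.08-fold and 3.40-fold higher against a floor of 3 reads per library. Pparg, the factor that directs the alveolar fate, had 96.3 ± 11.9 and 109.5 ± 14.7 normalized counts (SD, n = 3) and was not called, Car4 was at 0 reads in every PBS library, and Marco, a scavenger receptor, was lower, with 824, 1015 and 1023 against 429.7, 415 and 369, a log2 fold change of -1.24. The 12 listed genes summed to 1609 to 1946 normalized counts in WT and 1814 to 2013 in labelled TLR4-/- libraries, ranges that overlap. Without Marco, which held the most reads, the ranges were 785 to 923 in WT and 1399 to 1644 in labelled TLR4-/- libraries, without overlap. Genes of macrophages that take up lipid and debris were higher in 8 of 10 cases and lower in none. Trem2, the receptor that drives that state, had 775, 882 and 887 against 3314, 3706 and 3979, Gpnmb had a log2 fold change of 1.05, Lgals3 of 1.57 and Cd36 of 1.34. Spp1, the gene of osteopontin, which macrophages and fibroblasts of scarred lung both make, had 49999.9, 50839 and 53404 normalized counts in WT and 206812, 211527 and 231174 in labelled TLR4-/- libraries.

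Other blood cells were near the detection limit. Ly6c2 had no read in any PBS library and Ccr2, the receptor that marks monocytes newly come from blood, had at most 6. Of 6 monocyte genes tested, Plac8, Hp and Vcan were lower and Gsr was higher, and Vcan, versican, is also a fibroblast gene. Of the neutrophil genes, S100a9 had no read, Ly6g, Elane and Ltf had at most 2, and S100a8 had 132 ± 13.5 in WT against 151 ± 22.4 in labelled TLR4-/- libraries (SD, n = 3) and was not called. Of 4 neutrophil genes tested, 1 was higher and 1 lower. Csf3r, which macrophages also carry, was higher at 23.1, 21.96 and 29.1 against 131, 139 and 152, and Camp, an antimicrobial peptide gene, was lower from few reads, at 12.5, 8.99 and 14.6 against 6.92, 7.42 and 1.99. Camp was not called without WT library 1 or 3 or labelled TLR4-/- library 1 or 3 (adjusted p = 0.17, 0.21, 0.1 and 0.33 by edgeR). The T cell genes Cd3e, Cd3d, Cd3g and Cd8a had at most 1 read. Of 13 lymphocyte genes 2 were tested, with 1 higher and 1 lower. Cd4, which macrophages can also carry, had 4.81, 6.99 and 6.24 against 30.6, 39.2 and 29.9, and Nkg7, a granule protein of cytotoxic cells, had 5.77, 7.99 and 11.4 against 1.98, 2.12 and 0.996. Of 8 dendritic cell genes only Xcr1 and Zbtb46 were tested, and neither was called. The class II genes, which present antigen, were low throughout, and 4 of 5 tested were higher. H2-Ab1 had 62.6, 91.9 and 85.3 against 160.0, 195 and 169. H2-DMa and H2-DMb1 were higher by 0.65 and 0.89, and Cd74 was at least 6.63-fold higher against a floor of 3 reads. H2-Eb1 was not called, with 32, 33 and 27 reads against 27, 27 and 36. H2-Aa, Ciita and H2-Oa had at most 7 reads and were not tested. 

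**Figure D2:**
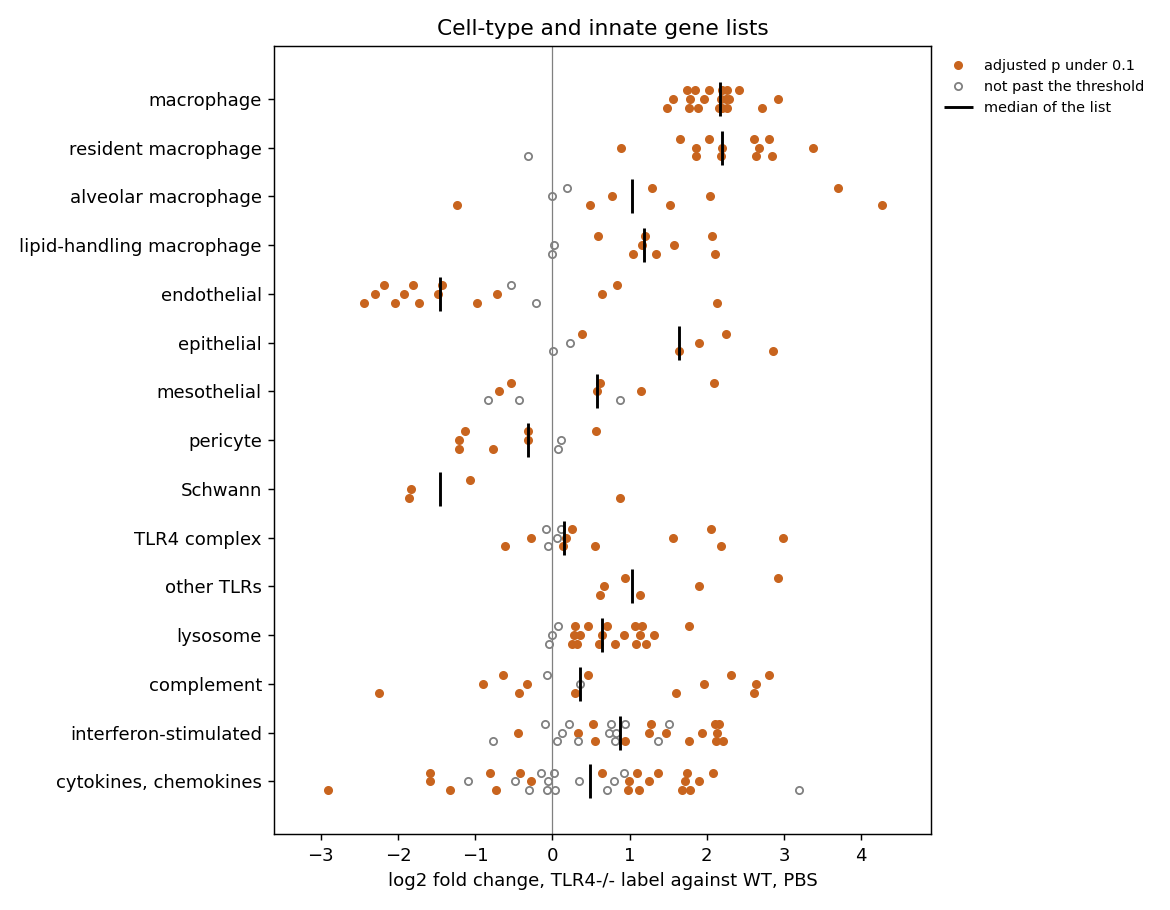
Log2 fold change of each tested gene (x axis, TLR4-/- label over WT with PBS) in the cell-type and innate lists, with filled points for genes past an adjusted p of 0.1, open points for the others, and a black line at the median of the list. Genes of the general and resident macrophage lists lie between 1.49 and 3.38 apart from Cbr2 and Lyve1, endothelial genes lie mostly below 0 with Vwf, Flt1 and Esam above, and the lysosome genes lie above 0 apart from Ctsk and Cd63.

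Endothelial genes went the other way for the most part, from a low level. Of 16 tested, 11 were lower and 3 higher, with a median log2 fold change of -1.45. Pecam1, which encodes CD31, had 142, 209 and 168 normalized counts in WT libraries and 68.2, 48.7 and 39.8 in labelled TLR4-/- libraries, a log2 fold change of -1.72 (edgeR adjusted p = 4.7e-04, SE 0.36). Cdh5, the endothelial cadherin, had 268, 416 and 353 against 119, 90.1 and 87.6, a log2 fold change of -1.81. In both genes the highest labelled TLR4-/- library was below the lowest WT library. Emcn, Plvap, Tie1, Robo4 and Sox18 were at a mean of 76.9, 91.8, 79.3, 29.8 and 35.3 normalized counts in WT and at 16.99, 16.7, 19.3, 7.76 and 7.06 in labelled TLR4-/- libraries. Against these stood Vwf, the von Willebrand factor gene, with 99.1, 96.8 and 105 against 428, 421 and 475, Flt1, a VEGF receptor that macrophages can also carry, with 1882 ± 126 and 3375 ± 330.2 (SD, n = 3), and Esam, which was higher by 0.64. The summed level of the list was higher in the labelled TLR4-/- libraries (4091 to 4650 against 2977 to 3599), opposite to the median of its genes, and most of its reads were of Flt1. Without WT library 2, which had the highest Pecam1 count, the median was -1.13.

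Epithelial cells were not seen by their defining genes. Epcam had at most 7 reads in any PBS library, and Sftpc, Sftpb, Scgb1a1, Nkx2-1, Cldn18 and Elf3 at most 2, in both genotypes. Of 21 epithelial genes 7 were tested, 5 were higher and none lower. The others did not pass the filter on low counts, and a sparse gene can pass it through the genotype where it is higher. Without that filter the median log2 fold change of the list was 0.39, against 1.63 with it. Krt8 had 32.7, 18.97 and 14.6 normalized counts in WT and 97.8, 108 and 114 in labelled TLR4-/- libraries, Krt18 52.9, 30.9 and 29.1 against 156, 126 and 141, and Cdh1, E-cadherin, 26.9, 25.96 and 26.02 against 85.9, 85.8 and 74.7. All 3 were without overlap between the genotypes. These keratins are also read in mesothelial cells, the lining of the pleura, and there 4 of 9 genes were higher and 2 lower. Wt1 had 72.2, 60.9 and 62.4 against 281, 270.2 and 287, a log2 fold change of 2.09, and Bnc1 of 1.15, whereas Upk3b was lower, at -0.54. 

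Genes of pericytes, which wrap capillaries, and of Schwann cells were lower for the most part. In the pericyte list 6 of 9 were lower and 1 higher. Rgs5, Kcnj8 and Abcc9 had log2 fold changes of -1.14, -1.21 and -1.21, and Pdgfrb, which fibroblasts share, of -0.31. Of the Schwann cell genes, S100b had 65.4, 64.9 and 87.4 against 15.8, 26.5 and 17.9 and Ngfr 83.7, 63.9 and 60.4 against 34.6, 39.2 and 25.9. Erbb3 was higher. Kit, the receptor of mast cells, was lower, with 17.3, 18.97 and 23.9 against 7.90, 5.30 and 3.98. No adipocyte gene of 7 was counted well enough to be tested.

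The general fibroblast genes were near equal in sum, with 1294122 to 1381707 normalized counts in WT and 1205978 to 1344883 in labelled TLR4-/- libraries, but not gene by gene. Of 27 genes, 15 were lower and 4 higher on the scale used here, with a median log2 fold change of -0.22. That median was -0.10 without WT library 2 and -0.088 without labelled TLR4-/- library 3. When libraries were scaled on this list itself, 12 were lower and 10 higher. Such scaling centres these genes near 0 by design, so that split is not a check. Pdgfra, the PDGF receptor that marks resident lung fibroblasts, had 7060.3, 8773 and 7773 normalized counts in the WT libraries and 3961, 3393 and 3010.4 in the labelled TLR4-/- libraries. Its log2 fold change was -1.19 (edgeR adjusted p = 1.5e-08, SE 0.12). Thy1, the surface glycoprotein CD90, had 17071, 18323 and 18133 against 8343, 7898 and 7835, a log2 fold change of -1.16. The genotypes did not overlap in either. The 3 chains of collagen VI, Col6a1, Col6a2 and Col6a3, were lower together, at -0.77, -0.74 and -0.71. The summed macrophage level given above moves with the genotype here too, and its part in the differences of fibroblast genes was not tested. Fap and Fbln2 were higher, by 0.52 and 0.29. 

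Genes of the alveolar type of fibroblast were lower in 8 of 11 cases and higher in 1, with a median of -1.01, and in 7 and 1 cases with scaling on the fibroblast genes. Fgf10, the growth factor by which the mesenchyme keeps alveolar epithelium, had 4741, 5910.4 and 5361 normalized counts in WT and 1199, 1112 and 1007 in labelled TLR4-/- libraries, a log2 fold change of -2.27 (edgeR adjusted p = 5.6e-13, SE 0.12). Limch1 was lower still, with 2370.5, 3327 and 3024 against 598, 544 and 366. Tcf21, a transcription factor of the lung mesenchyme, had 1133, 1478 and 1303 against 710.3, 776 and 679. All labelled TLR4-/- libraries were below all WT libraries for these 3 genes. Npnt and Itga8, which encode nephronectin and the integrin chain that binds it, were at -0.84 and -1.01. The gene that was higher, Plin2, coats lipid droplets in fibroblasts and in macrophages alike, and stood at 1.17. Wnt2 was not called, at 0.13. 

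Genes of adventitial fibroblasts, which sheathe vessels and airways, were lower in 9 of 16 cases and higher in 2, or 8 and 4 with scaling on the fibroblast genes. Sfrp2, a secreted Wnt binder, had the lowest log2 fold change of any list member at -4.25, with 70.3, 163 and 102 against 10.9, 3.18 and 2.99, and Ccl11, the eosinophil chemokine, had 167, 283 and 260.2 against 79.03, 84.8 and 72.7. Ly6a, Dpt and Igfbp4 had log2 fold changes of -1.34, -1.43 and -1.34. Pi16 and Dpp4, which mark a progenitor-like adventitial cell, were higher but sparse, with 4.81, 5.99 and 9.37 against 46.4, 48.7 and 47.8 and 6.74, 4.99 and 4.16 against 16.8, 19.1 and 6.97. Of 6 genes tested for the peribronchial type, 3 were higher and 2 lower. Hhip, an inhibitor of hedgehog signals, was at least 2.88-fold lower against a floor of 3 reads.

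**Figure D3:**
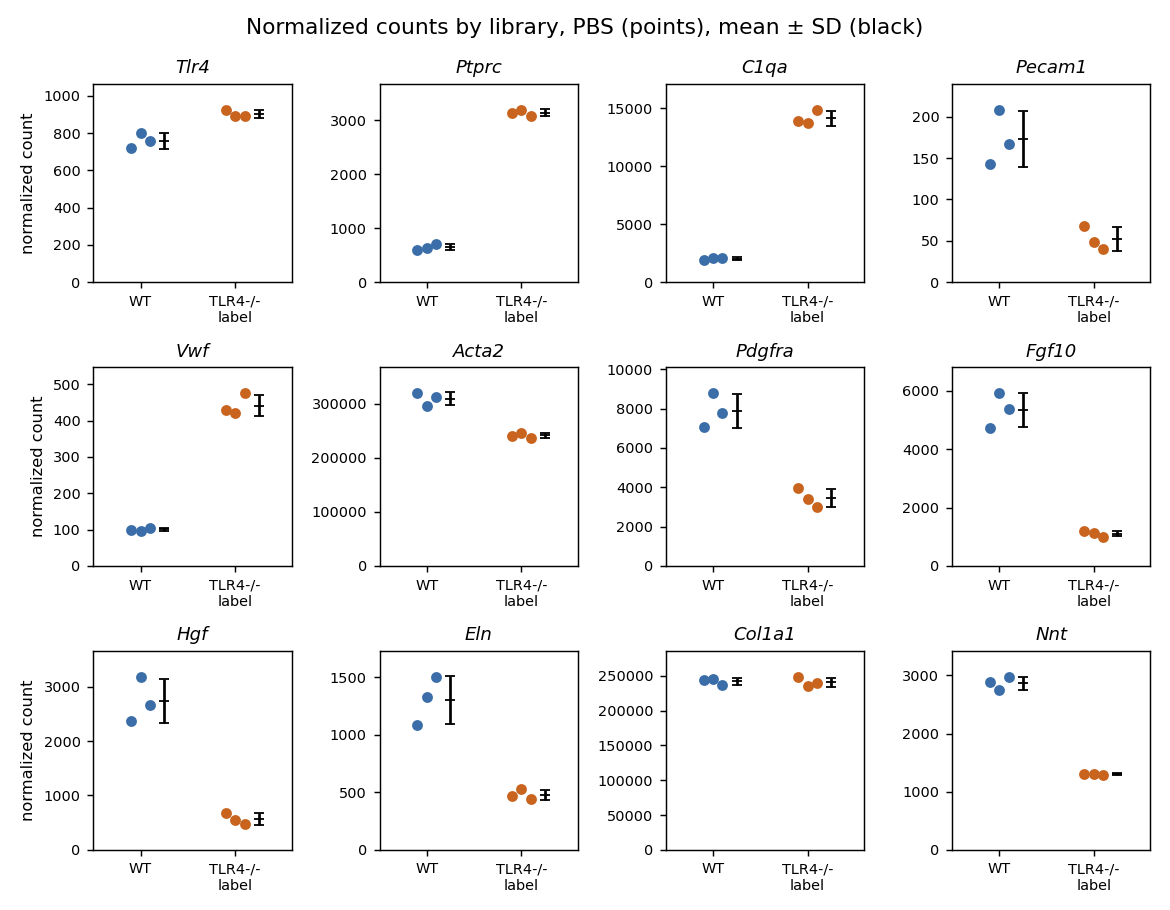
Normalized counts (y axis, from 0) of 12 genes in each PBS library, with WT in blue, the TLR4-/- label in orange, and the mean ± SD (n = 3) in black. Tlr4 is not lower in the labelled TLR4-/- libraries but somewhat higher, and Ptprc, C1qa and Vwf are higher. Pecam1, Pdgfra, Fgf10, Hgf, Eln and Nnt are lower, Acta2 is lower by a smaller part, and Col1a1 overlaps.

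The contractile genes, whose products form the stress fibres of myofibroblasts, were lower in 14 of 18 cases and higher in 2, with a median of -0.36. The differences were modest, and with scaling on the fibroblast genes 8 were lower and 2 higher, with a median of -0.20. Acta2, which encodes α-smooth muscle actin, had 318757, 295742 and 312147 normalized counts in WT libraries and 240715, 246387 and 236537 in labelled TLR4-/- libraries, and its log2 fold change was -0.36 (edgeR adjusted p = 0.0066, SE 0.10). Myh11, smooth muscle myosin, had 32984, 30366 and 32757 against 15452, 15912 and 14126, a log2 fold change of -1.08. Both genes were lower in every labelled TLR4-/- library. With scaling on the fibroblast genes Acta2 was at -0.19 and no longer called (adjusted p = 0.15 by edgeR). Actg2, Cnn1 and Mylk, an actin, calponin and the kinase of myosin light chain, were at -0.80, -0.72 and -0.72. Des, which encodes desmin, was higher instead, with 4272, 4657 and 4782 against 10627, 10780.3 and 10704, and Myocd, the coactivator of these genes, was not called at 54.9 ± 10.7 and 45.04 ± 6.03 (SD, n = 3). Tagln was called higher by 0.26, but 67.9% of its exonic bases are shared with genes on the other strand, so its value is uncertain, and it was not called without WT library 2, labelled TLR4-/- library 2 or labelled TLR4-/- library 3 (adjusted p = 0.24, 0.16 and 0.16 by edgeR) or with upper-quartile scaling (adjusted p = 0.11).

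Promoters of 2 genes are shown because they hold motifs known from macrophage genes and from contractile genes. RefSeq promoter windows (250 bases before to 50 after the start, build GRCm38.p6) were found for 12 of the 20 macrophage genes, with 14 windows, and for 13 of the 18 contractile genes, with 15 windows. GAGGAAGT, a form of the site bound by PU.1, was searched on both strands and found in 1 of the 14 macrophage windows (7.14%), that of Cd53, a tetraspanin of leukocytes, against 3.20% of all 32851 windows. The same letters were in 3 of 17 windows of resident macrophage genes (17.6%) and in 3 of 18 windows of general fibroblast genes (16.7%). The CArG box, bound by serum response factor at contractile genes, was found in 1 of 15 contractile windows (6.67%), that of Myl9, the regulatory light chain of smooth muscle myosin, against 1.63% of all windows and 1 of 17 resident macrophage windows (5.88%). It fits the pattern on both strands there and starts at position -161 from the start, and the motif of Cd53 starts at position 7 on the strand opposite to the gene. Capitals mark the motif.
Cd53, chr3:106790100-106790399, minus strand: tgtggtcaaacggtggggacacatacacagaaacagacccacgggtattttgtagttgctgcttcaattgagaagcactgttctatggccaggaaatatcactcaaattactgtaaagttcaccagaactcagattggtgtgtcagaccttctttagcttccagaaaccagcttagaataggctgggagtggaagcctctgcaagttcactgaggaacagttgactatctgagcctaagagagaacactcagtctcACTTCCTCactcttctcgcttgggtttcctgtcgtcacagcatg
Myl9, chr2:156775214-156775513, plus strand: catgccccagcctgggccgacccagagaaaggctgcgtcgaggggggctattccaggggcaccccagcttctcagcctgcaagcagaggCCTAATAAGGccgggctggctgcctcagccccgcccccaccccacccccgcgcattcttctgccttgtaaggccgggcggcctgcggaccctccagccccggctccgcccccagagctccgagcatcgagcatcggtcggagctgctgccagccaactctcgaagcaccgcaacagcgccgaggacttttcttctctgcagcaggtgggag
In these cultures Cd53 had 1676, 1836 and 1893 normalized counts in WT and 5953, 6289 and 6469.8 in labelled TLR4-/- libraries, and Myl9 had 45096, 41819 and 44657 against 33452, 34665 and 33935, a difference not called with scaling on the fibroblast genes (adjusted p = 0.11 by edgeR). A match is a description of the letters in the window and not of binding.

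The fibrillar collagens differed little. Of 11, 1 was higher and 2 lower. Besides Col1a1 above, Col5a1 was lower, with 63044, 66279 and 63071 against 53968, 53846 and 46673, and Col24a1, a minor fibrillar chain, had a log2 fold change of -0.80. Col2a1, a cartilage collagen, was the one called higher, at 0, 2.00 and 6.24 against 5.93, 3.18 and 27.9, and was not called by DESeq2 or without WT library 1, WT library 2 or labelled TLR4-/- library 3 (adjusted p = 0.15 by DESeq2, and 0.23, 0.17 and 0.66 by edgeR). Among the enzymes that modify and link collagen, 5 of 15 were higher and 6 lower, or 7 and 3 with scaling on the fibroblast genes, and 3 were higher without labelled TLR4-/- library 1. Lox, which crosslinks collagen and elastin, was higher, with 55555, 58493 and 55785 against 84775, 89379 and 75119.6, while Loxl1, which acts on elastin, was lower by a log2 fold change of -0.42. Basement membrane genes were lower in 8 of 18 cases and higher in 3, or 4 and 4 with scaling on the fibroblast genes. Col15a1, which ties the membrane to the stroma below it, was higher by 0.75, and the laminin chain gene Lama5 was lower, at -0.68. The medians of these 3 lists were -0.10, -0.049 and -0.071, and with scaling on the fibroblast genes they were 0.071, 0.11 and 0.093, on the other side of 0.

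Elastic fibre genes were lower in 14 of 15 cases and higher in 1, with a median of -0.66, and in 12 and 1 cases with scaling on the fibroblast genes. Eln, elastin itself, had 1089, 1326 and 1502 normalized counts in WT libraries and 468, 526 and 442 in labelled TLR4-/- libraries, a log2 fold change of -1.45 (edgeR adjusted p = 1.3e-04, SE 0.27). Mfap4, which binds the microfibrils around elastin, had 567, 1148 and 817 against 265, 327 and 215, and Efemp1, a fibulin, 1500.4, 1781 and 1668 against 705, 649.6 and 609. None of these overlapped between the genotypes. Fbln5, needed for elastin assembly, was at -0.66, and the 4 latent TGF-β binding proteins, which tether the stored growth factor to microfibrils, were at -0.84 (Ltbp1), -0.64 (Ltbp2), -0.42 (Ltbp3) and -0.95 (Ltbp4). Emilin2 was the gene that was higher, at 0.82. 

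**Figure D4:**
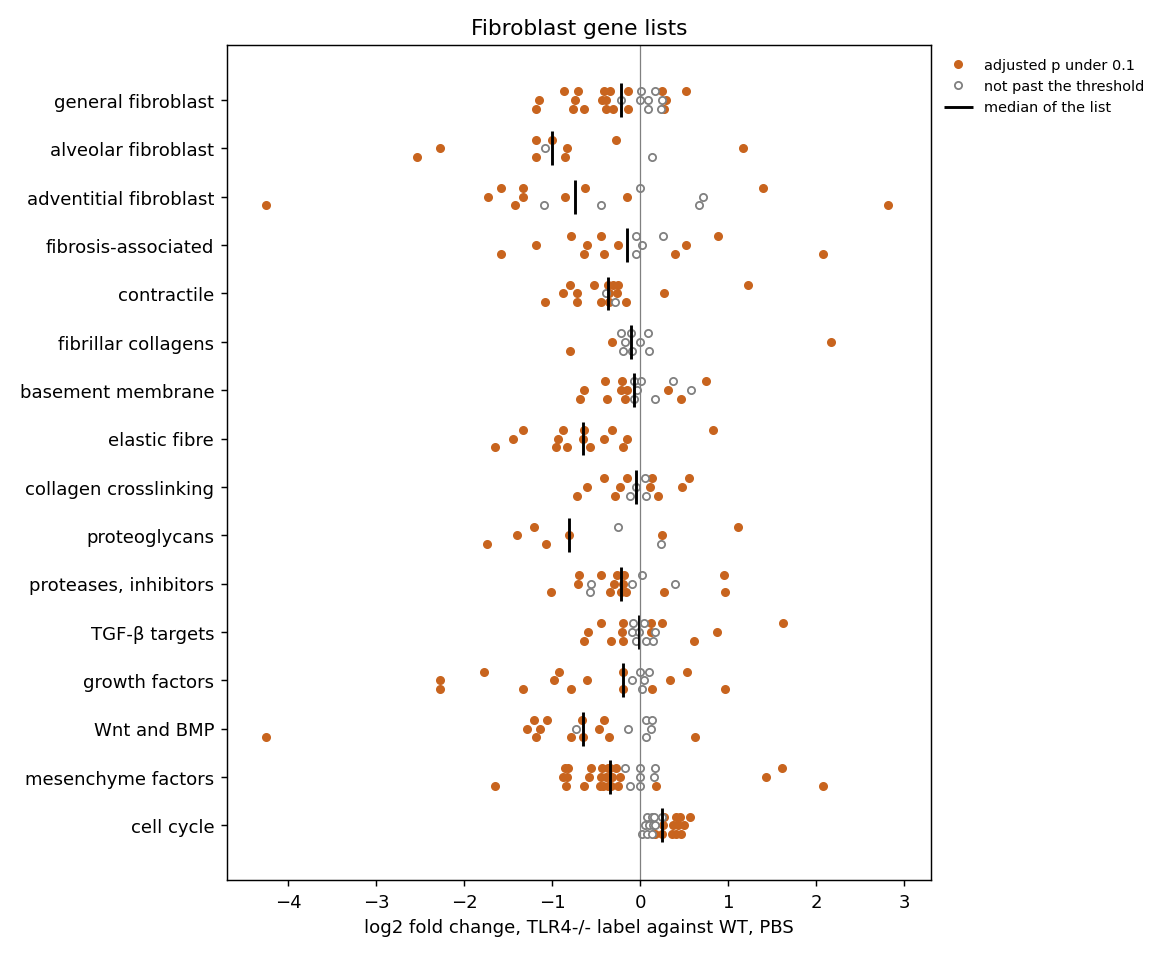
Log2 fold change of each tested gene (x axis, TLR4-/- label over WT with PBS) in the fibroblast, matrix, growth factor and cell cycle lists, with filled points for genes past an adjusted p of 0.1, open points for the others, and a black line at the median. The elastic fibre genes lie below 0 apart from Emilin2 (0.82), the alveolar fibroblast genes apart from Plin2 (1.17) and Wnt2 (0.13), and the cell cycle genes lie at or above 0.

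Among small leucine-rich proteoglycans and versican 5 of 9 were lower and 2 higher. Fmod, Prelp and Podn, which bind collagen fibrils, were at -1.74, -1.21 and -1.40, and Vcan at -1.07, while Dcn, decorin, was higher by 0.25. Its counts were 7692, 8389 and 8062 in WT and 10381, 9755 and 8634 in labelled TLR4-/- libraries. Of the proteases and their inhibitors 11 of 19 were lower and 3 higher, or 5 and 5 with scaling on the fibroblast genes. Mmp12, the macrophage elastase, and Mmp9, a gelatinase of macrophages, were higher by 0.96 and 0.95, and Mmp8, a collagenase, was lower, at -1.02. Matricellular genes were lower in 8 of 15 cases and higher in 2: Sparcl1 and Tnc were at -1.35 and -0.61, Postn, periostin, was higher with 7751, 7644 and 7428 against 15108, 14591 and 12332, and the strongly TGF-β-driven Ccn2 was not called at -0.064. Without labelled TLR4-/- library 3, 5 were lower. 

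Genes tied to fibroblasts of scarred lung did not move together. Of 16, 8 were lower and 4 higher, with 7 and 6 under scaling on the fibroblast genes. Il11, a cytokine by which fibroblasts sustain scarring, had 31084, 37891 and 30479.6 normalized counts in WT and 11144, 11802 and 10388 in labelled TLR4-/- libraries, a log2 fold change of -1.58. Grem1, an antagonist of BMPs, had 88418, 98147 and 93406 against 43569, 42546 and 37635. For both, all labelled TLR4-/- libraries were lower than all WT libraries. Cthrc1, the marker of collagen-rich fibroblasts in fibrosis, was lower by a log2 fold change of -0.44. The 4 that were higher were Spp1, Postn, Fap and Ncam1. Targets and parts of TGF-β signalling were split, with 6 of 21 higher and 7 lower, or 10 and 3 with scaling on the fibroblast genes. Smad7, an early target, was at -0.20, Tgfb1 at 0.25, Tgfb3 at -0.45, and Tgfbi, which macrophages also make, was the largest of the list at 1.62. Smad7 was no longer called with scaling on the fibroblast genes, at -0.032.

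Growth factors that the mesenchyme makes for the epithelium, Hgf, Fgf7 and Fgf10, were lower. Hgf, hepatocyte growth factor, had 2369, 3179 and 2673 normalized counts in the WT libraries and 684, 554 and 467 in the labelled TLR4-/- libraries, a log2 fold change of -2.27 (edgeR adjusted p = 9.6e-12, SE 0.14), like that of Fgf10 above. Fgf7 had 11848, 13888 and 11943 against 7644, 7456 and 6703. In the whole list of 19 growth factors and binding proteins 10 were lower and 4 higher, and 7 and 7 with scaling on the fibroblast genes. Without WT library 3 or labelled TLR4-/- library 3, 1 and 2 were higher. The carriers of insulin-like growth factors Igfbp2 and Igfbp5 were at -1.78 and -0.98. Csf1, the macrophage growth factor, was counted alike in the genotypes, with 106512, 103351 and 100258 in WT and 100365, 111723 and 103941 in labelled TLR4-/- libraries, values that overlap. Pdgfb was higher by 0.97. 

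Genes of Wnt and BMP signals were lower in 12 of 19 cases and higher in 1, and 10 and 2 with scaling on the fibroblast genes. Bmp4 had 523, 603 and 653 against 249.9, 232 and 249 normalized counts, Bmp5 a log2 fold change of -1.14, and the secreted antagonists Fst and Sfrp1 of -1.21 and -0.78. Transcription factors of the lung mesenchyme were lower in 23 of 34 cases and higher in 4, and 13 and 5 with scaling on the fibroblast genes. The T-box genes that pattern lung and trachea, Tbx2, Tbx3, Tbx4 and Tbx5, were at -0.83, -0.85, -0.88 and -0.59. Tbx4 had 1355, 1399.7 and 1333 normalized counts in WT and 765, 770.4 and 691 in labelled TLR4-/- libraries, and Foxf1, a forkhead factor of lung stroma, 2699, 2937 and 2912 against 1816, 1847 and 1812. Neither gene overlapped between the genotypes. The Hox genes of the A and B clusters kept within -0.56 and 0.16, where they passed the threshold only on the lower side, while Hoxc4, Hoxc5 and Hoxc6 were higher from few reads, with Hoxc5 at 8.66, 17.97 and 15.6 against 54.3, 63.6 and 60.7. 

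Cell cycle genes were slightly higher: 13 of 24 passed the threshold, none was lower, and the median was 0.24. Mki67 had 2269, 1631 and 2125 against 2844, 2706 and 2696 normalized counts and Pcna 2394, 2181 and 2191 against 3137, 3009.5 and 3208. Only 10 of the 24 genes were without overlap, so the groups lay close for most of them. With upper-quartile scaling 11 were called and with scaling on the fibroblast genes 22. Without WT library 1, 19 were called with a median of 0.36, and without WT library 2, 8 were called with a median of 0.12. Of 12 cycle inhibitors and p53 targets 4 were higher and 3 lower, and Cdkn2a and Cdkn2b, which rise as cultured cells age, were higher by 0.54 and 0.52. 

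In the group of TLR4, its partners and adaptors, 8 of 14 were higher and 2 lower. Ly96, the MD-2 gene, did not differ past the threshold, with 277, 292 and 277 against 294, 278 and 315 normalized counts. Cd14 was higher by 1.56, and Cd180 and Ly86, a TLR4 homologue of B cells and macrophages and its partner, by 2.19 and 2.98. Irak4, the kinase that starts the MyD88 branch, was higher by 0.55. All 6 other Toll-like receptors tested were higher, from 0.61 for Tlr6 to 2.92 for Tlr9. Tlr9 was sparse, with 7, 4 and 6 reads in WT and 50, 34 and 46 in labelled TLR4-/- libraries. Tlr5 was sparse too, with 25, 12 and 12 against 27, 33 and 33 reads. Tlr2 had 783, 849 and 889.9 against 1957, 1738 and 1853 normalized counts. Lysosomal genes, whose products are plentiful in macrophages, were higher in 18 of 21 cases and lower in none, with a median of 0.64. Ctss was the largest at 1.77, and Ctsk, the cathepsin of fibroblasts and osteoclasts, was not called at -0.049. Complement genes were split, with 8 of 15 higher and 5 lower, and 3 lower without WT library 2. C3ar1 and C5ar1, the myeloid anaphylatoxin receptors, were higher by 1.97 and 2.31, and C4b and Serping1, which stromal cells make, were lower, at -2.24 and -0.64. The part of macrophage reads in the innate differences was not tested.

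Chemokines and cytokines were also split, with 13 of 34 higher and 8 lower. Tnf had 243, 268 and 280 reads in WT and 989, 952 and 971 in labelled TLR4-/- libraries. Il1b had few reads, with 16, 14 and 21 against 75, 75 and 65. Il6 overlapped between the genotypes, with 10785, 15656 and 11487 reads against 13611, 10899 and 9332. Among chemokines that macrophages make, Ccl9 had 1484, 1678 and 1802 normalized counts in WT and 5462, 5412 and 5808 in labelled TLR4-/- libraries, Ccl6 4589, 5045 and 4637 against 14736, 14687 and 16540.3, and Ccl4 207, 273 and 253 against 783, 779.9 and 838. All 3 were without overlap. Among those that stroma makes, Cxcl12, which holds leukocytes in tissue, had 29076, 31294 and 30932 against 18517, 18944 and 17694, Cxcl1 had a log2 fold change of -1.33, and Ccl2 and Ccl7 were not called, at -0.060 and 0.030. Interferon-stimulated genes were higher in 14 of 28 cases and lower in 1, and higher in 9 without labelled TLR4-/- library 3. Rsad2, an antiviral enzyme, varied widely within the labelled TLR4-/- libraries, with 45.2, 25.96 and 40.6 against 71.1, 78.4 and 335. Without labelled TLR4-/- library 3 it was at 1.01 on the log2 scale and was not called (adjusted p = 0.15 by edgeR). Bst2, tetherin, was higher, with 1183, 1143 and 1038 against 3648, 2209 and 2335. 

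Outside the lists, the 12 largest rises and the 12 largest falls were as follows. Fcrls, an Fc receptor-like gene of tissue macrophages, had 324, 426 and 379 normalized counts in WT and 4297, 4504 and 4499 in labelled TLR4-/- libraries, and Trem1, an amplifying receptor of myeloid cells, 175, 228 and 219 against 1657, 1734 and 1566. Ms4a6b, Fgd2, Rhoh and Nfatc2 were at 3.13, 3.19, 3.01 and 2.86. The largest rises by the model were of Gdf3, a TGF-β family ligand, with 2.89, 6.99 and 5.20 against 114, 125 and 125, and of Hpgd, which breaks down prostaglandins, with 4.81, 8.99 and 5.20 against 137, 144 and 143. Both genes were at few reads in WT. The others of the 12 were Runx3 (3.58), Nxpe5 (3.21), Nkx6-1 (3.09) and Mfng (2.91). Among the falls, Gdf10, a BMP-like ligand, had 206, 288 and 265 against 16.8, 7.42 and 15.9, a log2 fold change of -4.22 (edgeR adjusted p = 1.2e-13, SE 0.21). Abi3bp, a matrix protein of resting mesenchymal cells, had 945, 1743 and 1385 against 171, 163 and 159, and Serpina3n, a protease inhibitor of the acute phase, 1583, 4098 and 2709 against 356, 329.6 and 319.6. The WT libraries varied widely in Serpina3n and still lay above all labelled TLR4-/- libraries. Alpl, tissue non-specific alkaline phosphatase, was at -2.54, Chrdl2, a BMP antagonist, at -2.65, Adamtsl3 at -2.77, Pappa2, which cleaves IGF carriers, at -2.59, Igsf10 at -2.51, Ramp3, a receptor partner for adrenomedullin, at -2.44, Cdh13 at -2.36 and Rbfox1, a splicing factor, at -2.33. The last of the 12, Bc1, is a small cytoplasmic RNA, and had 1309, 1226 and 768 against 243, 160.0 and 181.

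A knockout strain can carry DNA around the altered gene from the strain in which it was made, and the genes beside Tlr4 were therefore described. Of the 20 nearest tested genes, 10 on each side, 5 were higher and 6 lower, with a median log2 fold change of -0.04. Over all 15678 genes, 23.2% were higher and 23.8% lower, shares near those of the neighbours. The neighbours ran from -1.03 for Astn2 to 0.89 for Tnfsf8, a TNF family ligand. Astn2 had 183, 184 and 178 against 84.96, 93.3 and 89.6 normalized counts, without overlap. Nnt, the mitochondrial transhydrogenase of which the C57BL/6J substrain lacks a part, was counted at 2885, 2745 and 2971 in WT and 1312, 1311 and 1282 in labelled TLR4-/- libraries, a log2 fold change of -1.14. The labels give the strain only as C57BL/6.

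The genotypes were set side by side a second time in the 6 libraries with 2 ng/ml rmTGF-β1, recombinant mouse transforming growth factor β1, in place of PBS. These libraries share no sample with the PBS libraries, though the labels do not say whether they share a pool of cells. There 7259 genes were called (46.3%), with 24.4% of all genes higher and 21.9% lower. Across the 15678 genes the log2 fold changes had a Pearson correlation of 0.87 with those in the PBS libraries, which is across genes, and genes are not independent replicates. Of the 1437 genes of at least 1 in size with PBS, 1273 were called in the same direction with rmTGF-β1. All 20 macrophage genes were again higher, with a median of 2.19. In the endothelial list 11 of 16 were again lower and 3 higher, in the elastic fibre list 13 of 15 lower and 1 higher, in the contractile list 15 of 18 lower and 1 higher, and in the alveolar fibroblast list 8 of 11 lower and 2 higher. Some sparse lists carried over less well. Of 4 Schwann cell genes 1 was lower and 1 higher, against 3 and 1 with PBS. Of 9 mesothelial genes none was lower and 4 were higher, against 2 and 4 with PBS. Csf1r was at 2.20 with PBS and 2.29 with rmTGF-β1, Pdgfra at -1.19 and -1.30, Eln at -1.45 and -1.64, Hgf at -2.27 and -2.38, and Acta2 at -0.36 and -0.42. The difference between both genotype differences, tested by the interaction term in edgeR, passed the threshold in 13 genes (0.0829%), of which 2 were among the 1437. None of the list members passed it.

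**Figure D5:**
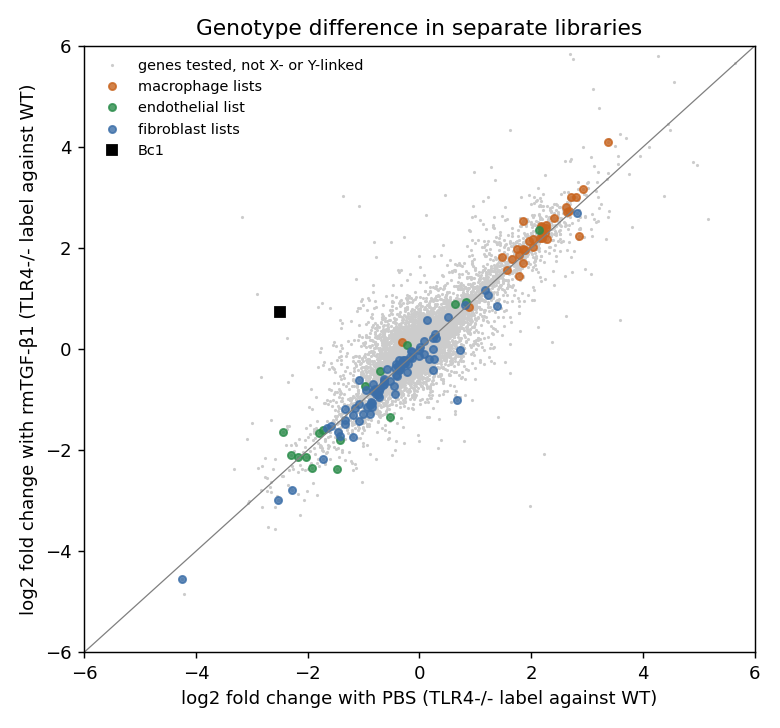
Log2 fold change (TLR4-/- label over WT) of each gene in the PBS libraries (x axis) and in the separate rmTGF-β1 libraries (y axis), in grey for all genes tested that are not X- or Y-linked and in color for members of the lists, with a line where both are equal and with 3 genes beyond the axes. Macrophage genes lie at the upper right, most endothelial and fibroblast genes at the lower left, and Bc1 (-2.50 with PBS) lies far from the line.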

How the data were processed

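The authors deposited, for each library, raw counts of reads per gene symbol without normalization, made by alignment with STAR2 to mouse GENCODE and counting with HTSeq after quality control in FastQC. The submitters' processing notes name the build NCBIM37. The annotation release and the strand option are not given in the sources used here, so reads of overlapping genes cannot be told apart. The 5 tally lines, 14.9% to 15.4% of the PBS reads, were left out. Of 55291 gene names, 53292 were placed on chromosomes by GENCODE M21 and 1090 by RefSeq symbols, and no gene positions are given because these use another build. Promoter windows are RefSeq sequences of GRCm38.p6.

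Differential expression was tested with edgeR 4.0.16 in R 4.3.3 (TMM, filterByExpr, glmQLFit with 1 mean for each of 8 conditions over 24 libraries, quasi-likelihood F-test, Benjamini-Hochberg adjustment over all 16258 genes, adjusted p under 0.1 as in the study), and X- and Y-linked genes were dropped after the adjustment. A standard error (SE) is the absolute log2 difference over the root of its F statistic. Normalized counts use DESeq2 1.42.0 size factors. The biological coefficient of variation was 0.0571, and no pair of replicates was as close as counting alone would make it. Exonic overlap is from GENCODE M21.

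The genes of the comparison and the lists, written by hand from general knowledge, were chosen with earlier results of these data known. Besides list members and Tlr4 with its neighbours, named genes are the 12 largest rises and 12 largest falls among called genes whose normalized counts averaged 50 or more and did not overlap, leaving out gene models, and not every gene the rule selects is named. A fold against a genotype with at most 3 reads in every library is a bound. The alternatives were RLE, upper-quartile and fibroblast-list scaling, DESeq2, other filters, the 6 PBS libraries alone, X- and Y-linked genes left out before the fit, a replicate block, a threshold of 0.05, and leaving out each library.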

Additional observations from a re-analysis of the deposited data

Results flagged for a closer look

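Bc1, a small cytoplasmic RNA, was the 1 named gene whose genotype difference was not the same in the PBS and the rmTGF-β1 libraries by the interaction term in edgeR. Its log2 fold change was -2.50 with PBS and 0.73 with rmTGF-β1, a difference of 3.23 (SE 0.652, adjusted p = 0.088). It had 1309, 1226 and 768 normalized counts in the WT and 243, 160.0 and 181 in the labelled TLR4-/- libraries with PBS, and 489 ± 270.0 against 802 ± 407 (SD, n = 3) with rmTGF-β1.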

How the results depend on the processing

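Of 7369 genes called, 7303 were also called with RLE scaling, 6929 with upper-quartile scaling, 6854 with DESeq2, 6091 without a filter on low counts, 6742 with a filter at a mean count of 10, and 6716 in the 6 PBS libraries alone. An adjusted p under 0.05 left 6316, and leaving out 1 library called between 6302 and 6801 genes. The libraries of both genotypes share replicate numbers, and same-numbered libraries did not deviate together (correlations across genes of -0.032, 0.0046 and 0.011), so the number pairs nothing. With the number as a replicate block 7399 genes were called, 7275 of them also without it. Scaling on the fibroblast genes, chosen after the data had been seen, moved the median over all genes from -0.019 to 0.15 and gave 6015 higher and 1291 lower calls. That scaling also called Fn1 (0.18), Csf1 (0.19) and Ly96 (0.23) higher. The cause of the changes that follow was not tested. List medians are given where they crossed 0 and, for the macrophage, resident macrophage, endothelial, epithelial, general, alveolar and adventitial fibroblast, contractile and elastic fibre lists, also where they moved by more than the spread between libraries. Over all 42 lists, 540 of 630 medians moved by less than that spread. With scaling on the fibroblast genes, these list medians changed in that way: macrophage 2.34, resident macrophage 2.37, fibroblast -0.054, alveolar fibroblast -0.84, fibrosis-associated 0.012, contractile -0.20, fibrillar collagen 0.071, basement membrane 0.093, elastic fibre -0.50, crosslinking 0.11, matricellular 0.029 and TGF-β target 0.15. With upper-quartile scaling, these list medians changed in that way: dendritic -0.023 and cycle inhibitor -0.018. Without a filter on low counts, these list medians changed in that way: neutrophil 0.81, epithelial 0.39, alveolar fibroblast -0.85 and peribronchial fibroblast -0.077. With a filter at a mean count of 10, these list medians changed in that way: neutrophil 0.21. With the 6 PBS libraries alone, these list medians changed in that way: neutrophil 1.36. With scaling on the fibroblast genes, these genes that were not called changed sign: Ccl2 0.11, Ccn2 0.10, Cd63 0.16, Col1a1 0.16 and Ctsk 0.12. With upper-quartile scaling, these genes that were not called changed sign: Ccl7 -0.0044, Csf1 -0.011, Fn1 -0.024, Xcr1 -0.016 and Zbtb46 -0.029. Without a filter on low counts, these genes that were not called changed sign: Col1a1 0.0021. With a filter at a mean count of 10, these genes that were not called changed sign: Cd63 0.0081 and Col1a1 0.010. With the 6 PBS libraries alone, these genes that were not called changed sign: Cd63 0.0045 and Col1a1 0.0067. Leaving out each library in turn gave these ranges where a median changed in that way or a gene changed sign: dendritic -0.046 to 0.15, endothelial -1.63 to -1.13, epithelial 1.66 to 1.93, mesothelial -0.066 to 0.63, fibroblast -0.31 to -0.088, alveolar fibroblast -1.04 to -0.89, contractile -0.41 to -0.34, basement membrane -0.11 to 0.0051, crosslinking -0.083 to 0.038, TGF-β target -0.036 to 0.015, Ccl2 -0.17 to 0.061, Ccl7 -0.11 to 0.14, Cd63 -0.030 to 0.013, Col1a1 -0.032 to 0.017, Csf1 -0.027 to 0.066, Fn1 -0.034 to 0.093, Lyve1 -0.64 to 0.20, Xcr1 -0.14 to 0.26 and Zbtb46 -0.062 to 0.073. Of the rare cell types, 7 of 21 epithelial, 2 of 13 lymphocyte and 4 of 10 neutrophil genes passed the filter on low counts. At this depth few cells and none cannot be told apart, and floors cover counting error only.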

Other observations

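A pair of genes, chosen after their values were seen, had almost no reads in WT libraries over all 4 treatments. Slco2b1, which encodes an organic anion transporter that macrophages carry, had at most 2 reads in any of the 12 WT libraries and between 35 and 111 in the 12 labelled TLR4-/- libraries, and with PBS it was at least 15.8-fold higher against a floor of 3 reads per library. Gm21451, a gene model without a known role, had at most 1 read in WT libraries and between 92 and 168 in labelled TLR4-/- libraries, at least 43.98-fold higher with PBS. The other genes whose genotype difference was not the same with PBS and with rmTGF-β1 were Abhd17b, Acvr1, Cdk11b, Cfdp1, Cited2, Fam174a, Gtf2h2, Hif1a, Kctd12, Rras2, Sp3 and Tmem86a, also named after their values were seen.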
